A study of Rattus norvegicus with 9 samples.

Results

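The carbonic anhydrases and their catalytically inactive relatives were followed in rat ventral midbrain and in cultures grown from it. The 6 genes are Car1, Car2, Car3, Car8, Car10 and Car11, out of 10411 genes that had a probe set with a single symbol on these Affymetrix arrays. Each gene was taken at its brightest probe set by the mean of all 9 arrays, and Car2 and Car3 had a further probe set each, which gave 8 probe sets in all. Embryos were taken on embryonic day 11 from 4 dams and combined into 3 groups. Ventral midbrains of each group were either pooled as tissue (MesE11, 3 arrays) or dissociated and cultured in duplicate for 9 days in vitro (MesPC, 6 arrays). No genotype, strain or treatment is given for either group, and the labels do not say which embryo group each culture array came from. The series sets out to compare the expression profile of embryonic midbrain with that of the neuronal primary cultures.

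Carbonic anhydrases are zinc enzymes that turn carbon dioxide and water into bicarbonate and a proton, and back. Car1, Car2 and Car3 are cytosolic enzymes: Car1 is abundant in red blood cells, Car2 in red blood cells, oligodendrocytes and the choroid plexus, and Car3 in skeletal muscle and fat. Car8, Car10 and Car11 are carbonic anhydrase-related proteins, which lack histidines of the zinc site and do not hydrate carbon dioxide. Car8 is best known from cerebellar Purkinje cells, where it binds the inositol trisphosphate receptor Itpr1, and Car10 and Car11 are secreted proteins of the brain, of which Car10 binds neurexins. In the order of protein-coding genes in RefSeq, Car2, Car3, Car1 and Car13 follow each other directly, while Car8, Car10 and Car11 each lie elsewhere.

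Values are log2 intensities, a difference is the MesPC mean minus the MesE11 mean, and the error after ± is its standard error from limma's fit over 3 and 6 arrays unless SD is named. The members were chosen by gene family with the measured MesPC to MesE11 differences already known, and probe sets by their mean intensity. The differences of the 6 genes are therefore given as a description, with no p-value. Where members are counted past limma's threshold, the share of all probe sets stands beside the count, and nothing is read from it. Precision is limited by how few arrays there are. The culture replicates parted into a first set (replicates 1 to 3) and a second set (replicates 4 to 6): Pearson's r across probe sets was 0.997 to 0.998 inside each set and 0.982 to 0.987 across them, and the labels give no reason for this division. The control probe sets for bacterial genes read 4.80 to 6.68, which serves here as the range of background.

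Promoter sequences are shown for Car10 and Car11, the related proteins with the largest differences and the only members of the 6 with an entry in the RefSeq promoter table (assembly GRCr8). Capitals mark matches to the GC box. The Car10 stretch is the 250 bases before the gene's first base, chr10:78550817-78551066 on the plus strand. The Car11 stretch is the 57 bases of its promoter window that lie before the gene's first base, chr1:105306290-105306346 on the plus strand.
Car10: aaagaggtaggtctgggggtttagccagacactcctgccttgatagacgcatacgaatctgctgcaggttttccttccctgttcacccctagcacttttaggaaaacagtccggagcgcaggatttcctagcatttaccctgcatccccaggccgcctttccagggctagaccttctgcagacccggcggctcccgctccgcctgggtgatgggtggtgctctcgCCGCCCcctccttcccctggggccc
Car11: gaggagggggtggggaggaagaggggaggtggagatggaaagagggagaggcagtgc
The 250 bases before the start site of the table held 60.4% G and C for Car10 and 64.0% for Car11, against a median of 51.2% over 33469 promoters. For Car11 all but the 57 printed bases of this window lie within the annotated gene. A GC box (GGGCGG, either strand) occurred 1 time in the window of Car10 and 0 times in that of Car11, and 30.5% of all promoters held it. A TATA box (TATAAA) was found 0 times in both windows, and 12.9% of all promoters held it. The E-box (CANNTG) was also found 0 times, where 65.5% of promoters held it. The cyclic AMP response element (TGACGTCA) occurred 0 times as well, against 1.59% of promoters. Both strands were searched and no motif overlapped another. A match is a description of letters and not a binding site.

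All 6 genes had a lower mean in culture than in tissue at their brightest probe set. Car10 was 3.17-fold lower, Car11 1.65-fold, Car8 1.42-fold, Car2 1.27-fold, Car1 1.23-fold and Car3 1.17-fold. The 6 culture values lay below the 3 tissue values for 5 of the 6 genes, all but Car2, where 23.3% of all 15866 probe sets tested did so. The same 5 passed limma's threshold (Benjamini-Hochberg adjusted p under 0.05) as lower and 0 as higher, against 22.5% and 19.7% of all probe sets, or 42.2% in either direction. With the first culture set, the second and the tissue arrays as random blocks, 3 of 6 passed (Car8, Car10 and Car11), against 20.3% of all probe sets. Car10 alone was lower by 2-fold or more, 1 of 6 against 2.03% of all. Nothing is read from these counts, since the members were chosen with the contrast in view. The median difference over the 6 genes was −0.43, and over all probe sets tested −0.07.

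**Figure D1:**
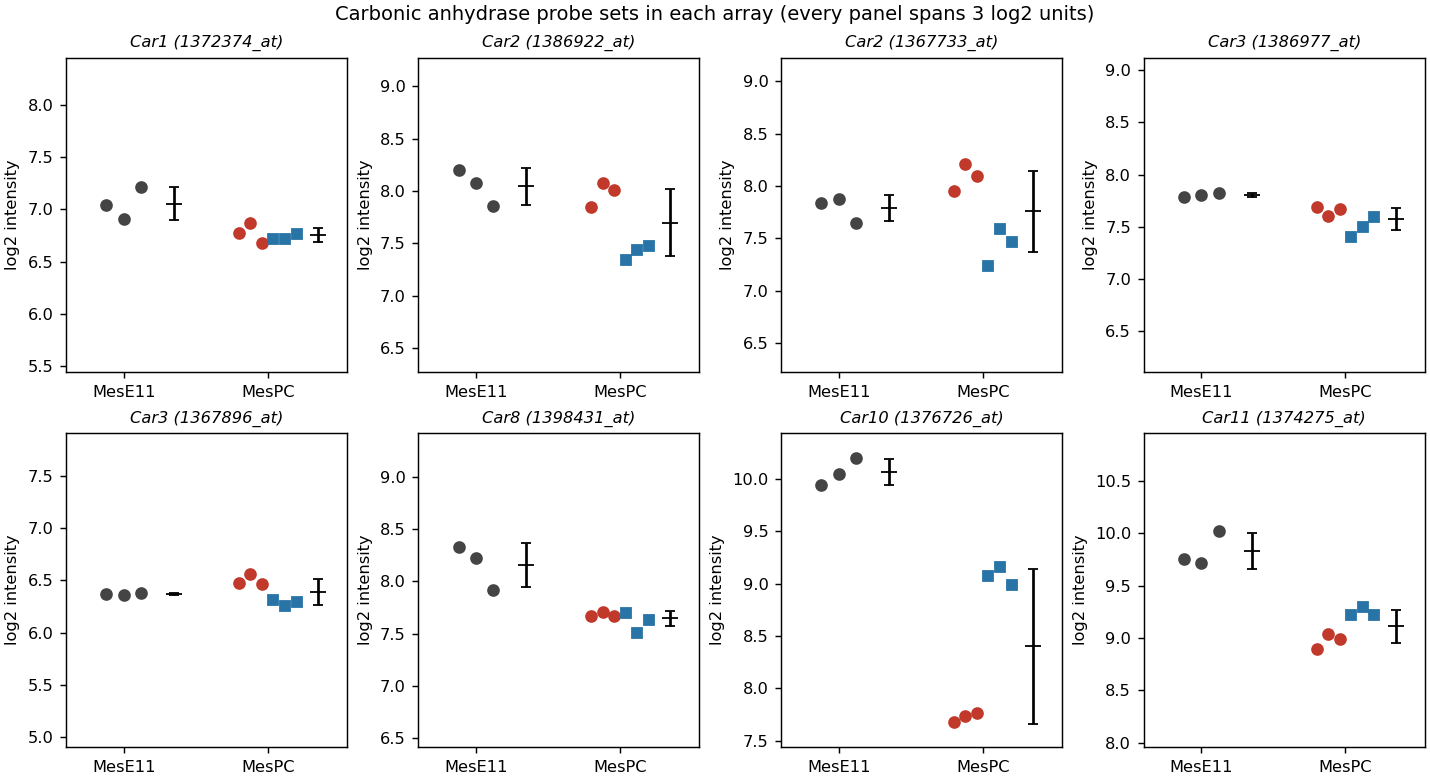
Log2 intensity of each member probe set in every array, with tissue (MesE11) as grey circles, the first culture set (MesPC arrays 1 to 3) as red circles and the second (4 to 6) as blue squares, and each group's mean and SD as a bar beside its points; every panel spans the same number of log2 units. The culture arrays of Car10 fall into a set at 7.68 to 7.77 and a set at 8.98 to 9.16, both below the tissue values.

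Car10 differed most. Its probe set (1376726_at) read 9.95, 10.05 and 10.20 in MesE11 replicates 1 to 3. In culture it read 7.68, 7.74 and 7.77 in replicates 1 to 3 and 9.08, 9.16 and 8.98 in replicates 4 to 6. The groups did not overlap, and the arrays of the first culture set were all lower than those of the second set. The means were 10.07 ± 0.13 (SD, n = 3) in tissue and 8.40 ± 0.74 (SD, n = 6) in culture, a difference of −1.66 ± 0.37. Against tissue, the difference was −2.34 ± 0.07 with the first culture set alone and −0.99 ± 0.08 with the second alone, so the size of the difference depended on the set of cultures while its direction did not.

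Car11, the other secreted related protein, read 9.76, 9.72 and 10.02 in the tissue replicates. The culture replicates read 8.89, 9.04, 8.99, 9.22, 9.30 and 9.22 in their order of number. Here too every culture array lay below every tissue array, and the first set lay below the second set, but the sets were closer together than for Car10. The difference was −0.72 ± 0.10 over all arrays, −0.86 ± 0.09 with the first culture set and −0.59 ± 0.09 with the second set.

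Car8 read 8.33, 8.22 and 7.92 in tissue and 7.67, 7.71, 7.67, 7.70, 7.51 and 7.63 in culture replicates 1 to 6. Its culture values were close together (SD 0.07, n = 6) and did not part into the sets seen for Car10, and the wider spread was in tissue (SD 0.21, n = 3). The difference was −0.51 ± 0.09, with −0.47 ± 0.10 for the first culture set and −0.55 ± 0.10 for the second set. Without MesE11 replicate 3, the lowest tissue array for this gene, the difference was −0.63, and without replicate 1 it was −0.42.

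Neuron markers were lower or did not pass the test. The shares called were 54.5% of neuron and 100% of dopaminergic neuron markers. Of all probe sets 42.2% were called, 22.5% of them as lower, or 20.3% in either direction with the random block. Of 11 neuron markers measured, 6 fell and 0 rose (5 and 0 with the random block), and their mean level was 12.13 to 12.24 in tissue, 10.48 to 10.71 in the first culture set and 11.64 to 11.68 in the second set. The order of the array sets was the same as for Car10 and Car11. All 6 dopaminergic neuron markers fell, or 5 with the random block, where Slc6a3, the dopamine transporter, did not pass (adjusted p = 0.0600), with mean levels of 9.43 to 9.48 in tissue and 7.59 to 8.38 in culture. Of the 4 Purkinje markers measured 0 passed the test, and their mean level was 9.76 to 9.80 in tissue, 8.79 to 9.05 in the first culture set and 9.86 to 9.92 in the second set. Among them Pcp2, a defining gene of Purkinje cells, read 7.13 to 7.30 in tissue and 6.78 to 7.21 in culture. The higher level of the list came from its other markers, and it does not show that Purkinje cells were present. The part of these markers in the differences of Car8, Car10 and Car11 was not tested. In such bulk RNA, fewer cells of a type and less RNA per cell cannot be told apart.

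The known partners of the related proteins did not move one way. Of 5 partner genes measured, 1 rose and 1 fell (40% called, against 42.2% of all probe sets). The counts were the same under the random block, where 20.3% of all probe sets were called. Itpr1, the calcium release channel that Car8 binds, rose by 0.78 ± 0.14 (adjusted p = 0.0017), from 7.11 to 7.65 in tissue to 8.19 to 8.40 in the first culture set and 7.90 to 8.02 in the second set. Itpr1 thus read higher in every culture array, while Car8 read lower in every one. The other receptor genes did not pass, with 0.18 ± 0.14 for Itpr2 and −0.20 ± 0.11 for Itpr3. Nrxn3, a presynaptic neurexin, fell by 0.61 ± 0.14 (adjusted p = 0.0062) and read 8.98 to 9.21 in the first culture set and 9.49 to 9.61 in the second set, against 9.81 to 10.08 in tissue. Nrxn2 did not pass (−0.46 ± 0.23, adjusted p = 0.129). Its culture values were 10.48 to 10.74 in the first set and 11.26 to 11.48 in the second set, and the latter overlapped the 11.38 to 11.51 of tissue. With the first culture set alone, 4 of the 5 partner genes were called, where 7879 of all 15866 probe sets were called, against 6693 with all arrays.

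**Figure D2:**
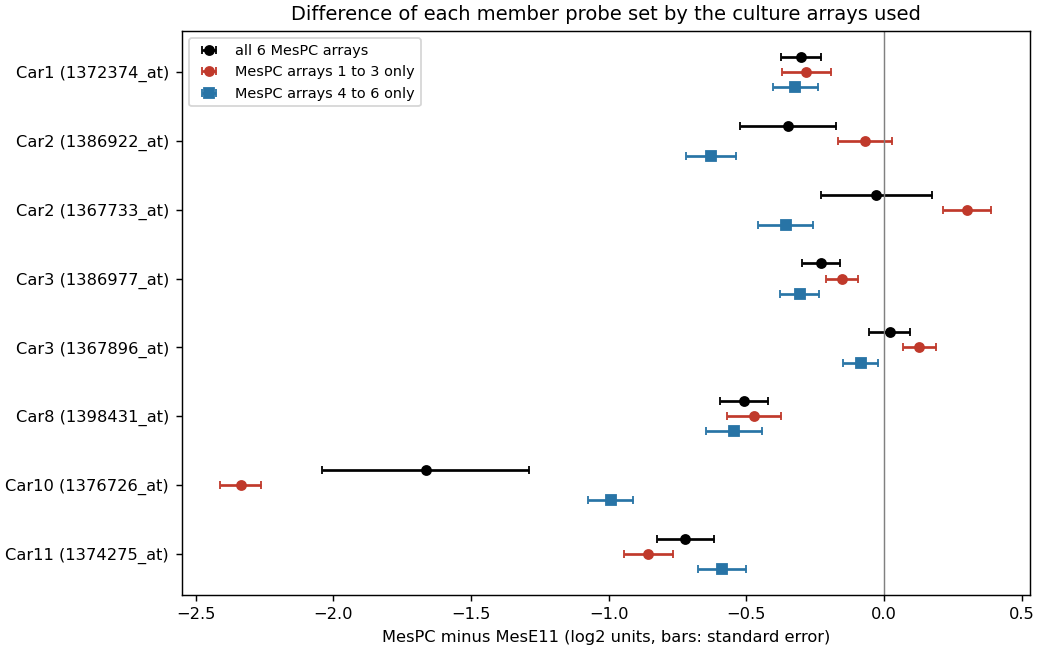
Difference between culture and tissue (MesPC minus MesE11, log2 units, horizontal axis) for each member probe set, with its standard error, using all 6 culture arrays (black), MesPC arrays 1 to 3 (the first set, red) or 4 to 6 (the second set, blue). Car10 lies at −2.34 with the first set and −0.99 with the second set, Car8 hardly shifts, and the further probe set of Car2 lies on either side of 0.

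Car2 did not separate tissue from culture. Its brightest probe set (1386922_at) read 8.21, 8.08 and 7.85 in tissue, 7.84, 8.08 and 8.01 in culture replicates 1 to 3 and 7.34, 7.43 and 7.48 in replicates 4 to 6. Arrays 1 to 3 overlapped tissue and the second set lay below it. The difference was −0.35 ± 0.18 over all arrays, −0.07 ± 0.10 with the first set and −0.63 ± 0.09 with the second set. The further probe set (1367733_at) read 7.84, 7.87 and 7.64 in tissue, 7.96, 8.21 and 8.10 in culture replicates 1 to 3 and 7.23, 7.59 and 7.46 in replicates 4 to 6. On it, every array of the first set lay above tissue and every array of the second set below, so that the overall difference was −0.03 ± 0.20, with 0.30 ± 0.09 for the first set and −0.36 ± 0.10 for the second set. Both probe sets are annotated to the same accession, and both read lower in the second culture set than in the first set.

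Markers of the cell types that carry Car2, and of astrocytes, took several courses. The shares called were 72.7% of erythroid, 58.3% of astrocyte, 30% of oligodendrocyte and 60% of choroid plexus markers. Of all probe sets 42.2% were called, or 20.3% with the random block. Of 11 erythroid markers 7 fell and 1 rose, as given with Car1 further on. Of 12 astrocyte markers, each at its brightest probe set, 7 rose and 0 fell (6 and 0 with the random block). Their mean levels were 9.81 to 10.08 in tissue, 10.79 to 10.87 in the first culture set and 10.59 to 10.67 in the second set. Further probe sets, singled out after their values were seen, went both ways. A further probe set each of Slc1a3, Aqp4, Gja1 and Slc1a2 fell past the threshold. Another of Slc1a3 and a further one of Glul rose past it. With the random block only those of Slc1a3 still passed, in opposite directions. Of 10 oligodendrocyte markers 1 rose and 2 fell, and their mean level, like that of Car2, was higher in the first culture set (7.84 to 7.92) than in the second set (7.33 to 7.44), with tissue at 7.59 to 7.63. Among them Mbp and Mog, defining genes of myelin, read 6.61 to 7.09 and 6.04 to 6.41 over all arrays, near or within the background range. The 2 that fell, Mag and Mobp, singled out after their values were seen, also read near or within it. Mag read 6.94 to 7.17 in tissue and 6.53 to 6.76 in culture, and Mobp 6.57 to 6.79 and 6.39 to 6.59. Olig1, singled out after its values were seen, differed most of the 10 between the culture sets and weighs on their mean level. It read 12.19 to 12.77 in the first set and 9.72 to 10.32 in the second set, with tissue at 10.41 to 10.45. Of 5 choroid plexus markers 2 rose and 1 fell, and their mean level was higher in culture (8.36 to 8.44) than in tissue (8.02 to 8.27); Ttr, which defines that epithelium, read 7.18 to 7.92 in tissue and 6.61 to 7.08 in culture. With the random block 1 oligodendrocyte marker rose and 1 fell, and 2 choroid plexus markers rose and 0 fell. The part of these cell types in the values of Car2 was not tested.

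Car1 (1372374_at) was dim. It read 7.04, 6.91 and 7.22 in tissue and 6.77, 6.87, 6.68, 6.72, 6.72 and 6.76 in culture, where 1 array was within the background range and the others less than 0.2 above it. The groups did not overlap, and the difference was −0.30 ± 0.07, or −0.19 under quantile normalization of the deposited values. Left-out tissue arrays moved it more than its spread in culture: it was −0.38 without MesE11 replicate 2 and −0.22 without replicate 3. Car1 is an enzyme of red blood cells, and 7 of 11 erythroid markers fell while 1 rose (6 and 1 with the random block), with mean levels of 9.67 to 9.88 in tissue and 7.86 to 8.04 in culture. Of all probe sets 22.5% were called lower and 19.7% higher, or 20.3% in either direction with the random block. Hbe1, an embryonic globin, read 12.84 to 12.96 in tissue and 6.31 to 7.42 in culture. The culture values of Car1 lay at or just above the upper end of the background range, so the size of its difference is uncertain. The part of erythroid cells in its difference was not tested.

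Car3 differed least of the 6 genes at its brightest probe set. Its brightest probe set (1386977_at) read 7.78, 7.81 and 7.82 in tissue and 7.69, 7.60, 7.67, 7.40, 7.50 and 7.59 in culture, without overlap, a difference of −0.23 ± 0.07. The further probe set (1367896_at), annotated to the same accession, read 6.36 to 6.38 in tissue and 6.26 to 6.56 in culture, within the background range on all 9 arrays, with a difference of 0.02 ± 0.07. Over the mean of both probe sets the difference was −0.10. Skeletal muscle markers fell in 3 of 9 cases with 0 higher (mean levels 7.06 to 7.17 in tissue, 6.78 to 6.81 in culture), and of 7 adipocyte markers 1 rose and 1 fell (6.37 to 6.45 and 6.28 to 6.65). With the random block 1 muscle marker fell, and 1 adipocyte marker rose and 0 fell. The shares called without that block were 33.3% of muscle and 28.6% of adipocyte markers. Both were below the 42.2% of all probe sets, which was 20.3% with the random block. The defining genes Ckm (6.61 to 7.03), Mb (6.07 to 6.28) and Fabp4 (5.37 to 5.48) read near or within the background range on all arrays. Other members of these lists, singled out after their values were seen, read above it, apart from the lowest tissue array of Lpl, which lay within it at 6.57. Acta1, skeletal muscle actin, fell by 1.59 ± 0.20 (adjusted p = 0.00044 with the random block), from 8.54 to 8.90 in tissue to 6.77 to 7.53 in culture. Lpl, lipoprotein lipase, rose by 1.25 ± 0.35 (adjusted p = 0.0185), from 6.57 to 6.98 in tissue to 8.63 to 8.80 in the first culture set and 7.43 to 7.44 in the second set. Tnni1, a troponin of slow muscle, did not pass (−0.11 ± 0.10). The part of these cell types in the values of Car3 was not tested.

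Dim probe sets read slightly lower in culture across the array. In the lowest quartile of mean level, which holds Car1 and the further probe set of Car3, the median difference was −0.11, with a lower and upper quartile of −0.20 and −0.03. The next quartile of level, which holds both Car2 probe sets, the brightest of Car3 and Car8, had a median difference of −0.12 (quartiles −0.25 and 0.10). That of Car10 and Car11 had a median of 0.03 (quartiles −0.21 and 0.32). The difference of Car3 (−0.23) lay between the quartiles of probe sets of like level, and those of the other 5 genes at their brightest probe set lay below the lower one.

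**Figure D3:**
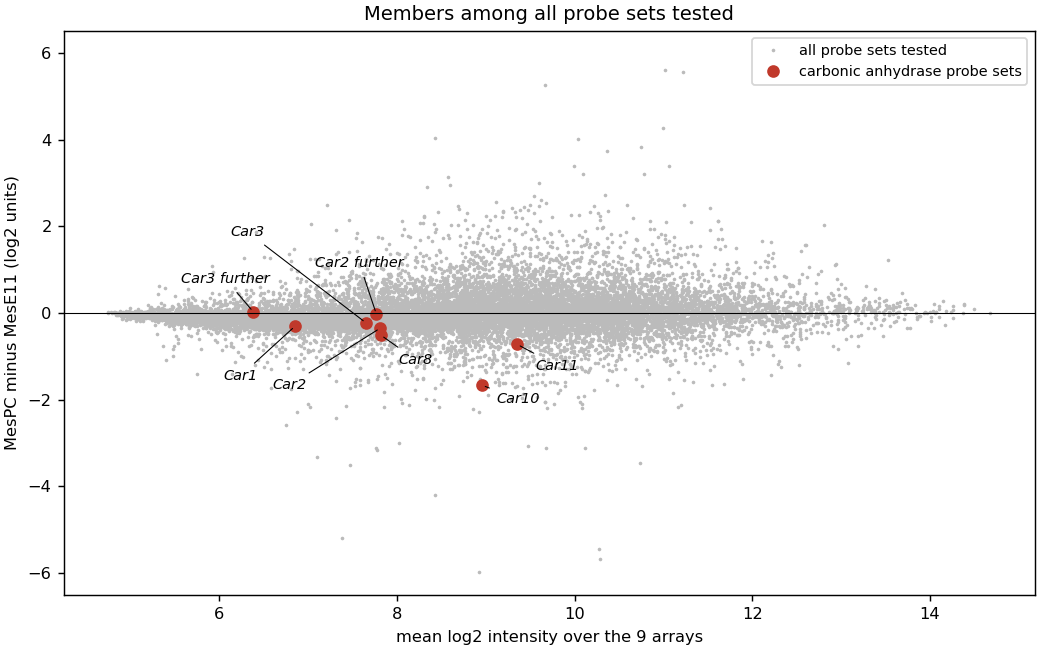
Difference between culture and tissue (MesPC minus MesE11, log2 units) against mean log2 intensity over the 9 arrays, for all 15866 probe sets tested (grey) and the 8 member probe sets (red). Car10 (−1.66) and Car11 (−0.72) sit at the lower side of the cloud, and the remaining member probe sets lie closer to 0.

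Genes whose course over the 9 arrays was most like each member were sought by the root mean square difference between values centred on each gene's own mean. For Car10 they were Myt1l, a zinc finger factor of neurons, Jakmip1, Ablim3 and Nrsn1, at 0.126 to 0.135 log2 units, where the median over 958 candidate genes of sufficient range was 1.36. These 4 genes differed by −1.78, −1.56, −1.59 and −1.60 between culture and tissue. For Car11 the nearest were Nav1, Klc2, a kinesin light chain, Dusp2 and Kit, a receptor tyrosine kinase, at 0.063 to 0.087 (median 0.467 over 4309 candidates). For Car8 they were Polg2, Nos3, Zic1 and Bag1 (0.046 to 0.093, median 0.330 over 6770). For Car2 they were Cspg4, a proteoglycan of oligodendrocyte precursors and pericytes, Traf4, Emcn and Syk (0.070 to 0.117, median 0.397 over 6339). Cspg4 differed by −0.30 and was also on the list of oligodendrocyte markers. The nearest to Car1 were Gnrhr, Vom2r53, Cyp2t1 and Hemgn (0.049 to 0.053, median 0.229 over 9084), and to Car3 Il4, Slc16a8, Pgf and Fbp2 (0.028 to 0.035, median 0.202 over 9739). Nos3 (means 5.62 in tissue and 5.13 in culture), Hemgn (5.78 and 5.54) and Il4 (5.81 and 5.60) had both means within the background range.

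Of the other carbonic anhydrases, Car4, Car5a, Car5b, Car6, Car7 and Car14 were measured, along with Ptprz1, a receptor phosphatase whose outer part carries a carbonic anhydrase-like domain. Of these 7 genes 1 rose and 1 fell (28.6% called, against 42.2% of all probe sets; median −0.08). Ptprz1 rose by 1.19 ± 0.22 or 2.29-fold (adjusted p = 0.0019), from 10.08 to 10.39 in tissue to 11.66 to 11.94 in the first culture set and 11.01 to 11.10 in the second set. Its further probe set rose by 1.13 ± 0.22. Car5a, a mitochondrial enzyme, fell by 0.19 ± 0.05 (adjusted p = 0.0144), a small change that was not called under quantile normalization (−0.07, adjusted p = 0.338), with the random block (adjusted p = 0.176) or without MesE11 replicate 3 (adjusted p = 0.0542). The membrane enzymes Car4 (−0.18 ± 0.09) and Car14 (−0.08 ± 0.10), the mitochondrial Car5b (−0.07 ± 0.09), the secreted Car6 (−0.02 ± 0.06) and the cytosolic Car7 (−0.09 ± 0.04) did not pass. With the second culture set alone Car4 (−0.30) and Car14 (−0.22) were called lower as well, where 4335 of all 15866 probe sets were called lower. Car9, Car12, Car13, Car15 and Ptprg had no single-symbol probe set here and were not analysed.

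Carriers of bicarbonate, protons and gases moved in both directions. Of 17 genes measured, among them the bicarbonate-sensitive adenylyl cyclase Adcy10, 3 rose and 6 fell (median −0.19). The share called was 52.9%, against 42.2% of all probe sets. With the random block 2 rose and 1 fell, where 20.3% of all probe sets were called. Without MesE11 replicate 3, 3 rose and 3 fell, and without the dimmest 40% of probe sets, where fewer were tested, 3 rose and 3 fell as well. Slc4a4, the electrogenic sodium bicarbonate cotransporter, rose by 1.96 ± 0.18 or 3.89-fold (adjusted p = 0.001 with the random block). It read 9.84 to 10.11 in culture, above the 7.37 to 8.29 of every tissue array, but its further probe set did not pass (0.23 ± 0.10, adjusted p = 0.0774). Slc4a2, an anion exchanger, rose by 0.81 ± 0.19 (adjusted p = 0.0079), from 8.43 to 8.84 in tissue to 9.60 to 9.86 in the first culture set and 8.97 to 9.42 in the second set. Slc16a1, which carries lactate together with a proton, rose by 0.44 ± 0.11 (adjusted p = 0.0122), but not past the threshold with the random block (adjusted p = 0.0738) or without MesE11 replicate 2 (adjusted p = 0.0593).

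Slc4a3, an anion exchanger of brain and heart, fell by 0.47 ± 0.17 (adjusted p = 0.0459), and the call ended with the random block (adjusted p = 0.0890), with the second culture set alone (adjusted p = 0.0521), without any 1 tissue array (adjusted p from 0.0980 to 0.120) and without any 1 array of the first culture set (adjusted p from 0.0643 to 0.0776). Slc9a5, a sodium/proton exchanger, fell by 0.42 ± 0.07 (adjusted p = 0.0197 with the random block). Slc4a1, the band 3 anion exchanger of red blood cells, fell by 0.35 ± 0.08 on its brighter probe set (adjusted p = 0.0777 with the random block). On its dimmer probe set it fell by 1.24 ± 0.06, from 7.29 to 7.37 in tissue to 6.01 to 6.19 in culture, which is within the background range. The neuronal exchanger Slc4a10 did not pass (−0.51 ± 0.43, adjusted p = 0.351). It was singled out after its values were seen: it read 6.49 to 6.75 in the first culture set and 8.02 to 8.38 in the second set, where tissue read 7.83 to 8.03, so the first set lay below tissue and the second overlapped its upper end.

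**Figure D4:**
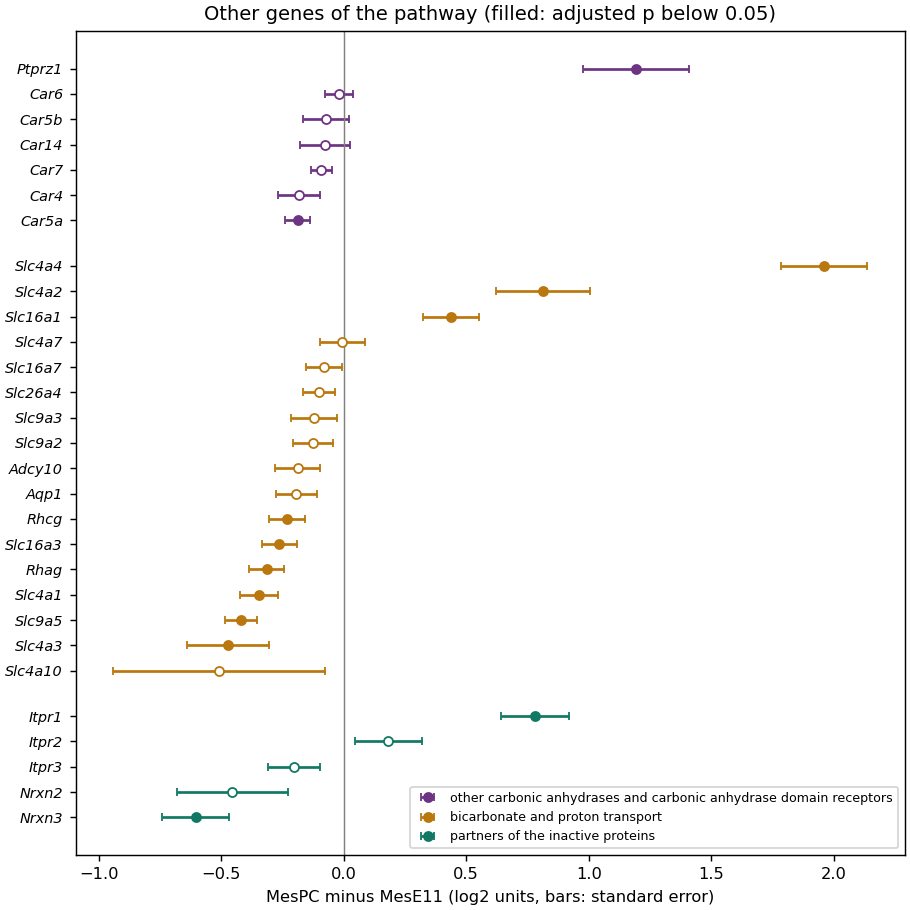
Difference between culture and tissue (MesPC minus MesE11, log2 units, horizontal axis) with its standard error for the other carbonic anhydrases and Ptprz1 (purple), carriers of bicarbonate, protons and gases with Adcy10 (orange) and partners of the inactive proteins (green); filled circles passed limma's test. Slc4a4 (1.96) and Ptprz1 (1.19) lie farthest to the right, and Car4, Car5b, Car6, Car7 and Car14 lie within 0.2 of 0 and did not pass.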

How the data were processed

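Total RNA from 9 samples, isolated with Tri-Reagent per the labels' protocols, was hybridized to Affymetrix arrays. The deposited values are log2 intensities that the authors made with RMA, per the submitters' processing notes, with no version given in the sources used here; scanner files were not used here. RMA normalizes the arrays to each other, so a difference is measured against the rest of the array. Of 15923 probe sets, 57 controls were left out. The platform annotation gave 12783 of the rest a single symbol, 312 several and 2771 none; RefSeq (GRCr8) changed 0 symbols. Groups were compared with limma 3.58.1 in R 4.3.3 (lmFit, eBayes, Benjamini-Hochberg over 15866 probe sets, threshold 0.05). Since arrays may share embryo groups, p-values speak only of array-to-array spread. On simulated arrays with changes planted among 15866 probe sets, planted sizes of 0.5, 1 and 2 log2 units were recovered in 45 of 67, 60 of 67 and 66 of 66 cases, with 7 false among 178 calls. The simulated arrays varied independently of each other, while the culture arrays here parted into sets. These counts thus do not give the error rate of the calls above.

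The members, gene lists and array sets were chosen with earlier results of these data known. The text names all member probe sets, all measured other carbonic anhydrases, up to 3 risers and 3 fallers past the threshold from each other list, and the 4 genes most like each member in their centred values, leaving out predicted loci and genes whose range was under 0.5 times the member's; marker genes named are defining genes of their lists, apart from those said to be singled out and Slc6a3. The alternatives were quantile normalization, median centring, leaving out the dimmest 40% of probe sets, averaging a gene's probe sets, either set of culture arrays alone, a random block (duplicateCorrelation) for these sets and tissue, the replicate number as a block, and leaving out each array. Plots were drawn with matplotlib 3.10.9.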

Additional observations from a re-analysis of the deposited data

Results flagged for a closer look

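In the 6 culture arrays, MesPC replicate 4 stood apart from the other 5 for Car5b (6.32, the next lowest 6.59) and for Car7 (6.99, the next lowest 7.02), by the gap to its neighbour relative to the whole range. Of 23 probe sets looked at in this way, these 2 were marked, and chance marks about 1 in 20.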

How the results depend on the processing

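The fit over all 9 arrays called 6693 probe sets, and the random block 3227. Culture arrays 1 to 3 alone gave 7879 and arrays 4 to 6 alone 7672. Of the other carbonic anhydrases and Ptprz1, 2 were called, against 4 with culture arrays 4 to 6 alone, 1 under quantile normalization, 1 with the random block, 1 without the dimmest 40% of probe sets, where fewer members were tested, and 1 to 2 when single arrays were left out, the 1 being without MesE11 replicate 3. Of the carriers 9 were called, against 3 with the random block and 6 to 9 without single arrays. Of the partners 2 were called, against 4 with culture arrays 1 to 3 alone, 1 without the dimmest 40%, and 2 without any single array. Same-numbered arrays did not deviate together (r across probe sets of 0.08, −0.12 and −0.11 for numbers 1, 2 and 3). With so few arrays this cannot show whether they share an embryo group, which the labels do not give. With the replicate block over arrays 1 to 3 of both groups, 7521 probe sets and 4 partners were called. Where no value above shows a cause, the cause was not tested. With single arrays left out, the difference of Car10 ran from −1.82 to −1.52, of Car11 from −0.78 to −0.63, of Car2 from −0.44 to −0.27 and of its further probe set from −0.12 to 0.08. Signals of Car1 and of the further probe set of Car3 near or within background limit what their differences can show.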

Other observations

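Marker lists of cell types not tied to a carbonic anhydrase above also differed. All 10 fibroblast and mesenchyme markers rose (mean levels 7.76 to 8.02 in tissue, 10.50 to 10.72 in culture). Of 8 microglia markers 6 fell (7.92 to 7.98 and 7.41 to 7.61), and of 4 endothelial markers 3 fell. With the random block 9, 3 and 3 of these calls were made. Of all probe sets 22.5% were called lower and 19.7% higher, or 20.3% in either direction with the random block.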
